A study of Mus musculus with 30 samples.

Results

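The genes of the translation initiation factors (eIFs) were examined in mouse 3T3-L1 cells, an established fibroblast line that accumulates fat in adipogenic medium. Members were the protein-coding genes whose symbol starts with Eif followed by a digit from 1 to 6, without the 4 eIF2 kinases and the symbols of pseudogenes, with over 14 counts summed over the 30 libraries. Of 66 symbols of that form, 48 were members, among 20139 genes tested. The remainder were the 4 kinases, 10 pseudogene symbols, Eif2c5, which is not annotated as protein-coding, and 3 genes with too few counts (Eif2s3y, Eif4e1b and Eif4ebp3, with 0, 1 and 9 counts in all).

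RNA-seq had been run on 6 groups of 5 libraries, and all cells had received adipogenic medium, for 5 days according to the labels. The groups were Control (no agent), pNaKtide at 0.7 µM, indoxyl sulphate (IS) at 100 µM, IS + pNaKtide, oxidised low density lipoprotein (oxLDL) at 50 µg/mL and oxLDL + pNaKtide, at the same doses when combined. IS is a solute that accumulates in renal failure, oxLDL is an oxidised lipoprotein, and pNaKtide is a cell-permeant peptide derived from the Na,K-ATPase α1 subunit that binds the Src kinase. The labels give 5 days of exposure, whereas the methods of the study describe a shorter one. The labels name 3T3 cells as the source of every library, but their RNA extraction text names adipose tissue, and the cells were taken here as the source. All libraries came from 1 cell line, and separate cultures were not stated, so the p-values measure the spread between libraries. The 8 adipocyte markers (Adipoq, Fabp4, Plin1, Lpl, Cd36, Cebpa, Pparg and Cidec) summed to 11255 to 17604 CPM (counts scaled to a common library size) in every library, and the 6 preadipocyte or fibroblast markers to 3058 to 7250 CPM. The latter (Pdgfra, Pdgfrb, Dlk1, Col1a1, Col1a2 and Thy1) summed to 5209 to 7250 CPM in Control, 3585 to 6560 in pNaKtide, 3060 to 5945 in IS, 3058 to 4197 in IS + pNaKtide, 4172 to 4687 in oxLDL and 4023 to 6992 in oxLDL + pNaKtide, so that oxLDL and IS + pNaKtide lay wholly below Control; their part in the results below was not tested. Of the 5 macrophage markers 2 passed the filter, with a sum of 3.12 to 7.56 CPM, and the defining genes Ptprc and Itgam had 0 counts.

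Initiation is the step at which the ribosome is brought to a messenger RNA and finds its start codon. eIF2 carries the initiator tRNA to the small ribosomal subunit and is recharged with GTP by eIF2B, eIF3 is the large scaffold on the small subunit, and the eIF4 factors bind the cap and unwind the leader. eIF1 and eIF1A guard start codon choice, eIF5 and eIF5B complete subunit joining, eIF5A eases peptide bond formation during elongation, and eIF6 keeps free large subunits from joining. In fat cells these factors are under the control of insulin, which acts through mTORC1 and the eIF4E binding proteins.

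The 48 genes took between 0.898% and 0.978% of the counts of a library. In FPKM (fragments per kilobase of gene, scaled to library size), which corrects for gene length, the level in Control ran from 0.821 ± 0.232 (SD, n = 5) for Eif5a2 to 317 ± 45.7 for its paralogue Eif5a. The highest level in each role belonged to Eif5a, Eif3h (252 ± 45.8 FPKM), Eif1 (148 ± 8.13), the helicase gene Eif4a1 (123 ± 6.45), Eif4ebp1 (102 ± 21.0), Eif2b5 (58.3 ± 10.2) and Eif2s3x (38.4 ± 5.89), by the mean over all libraries. The subunits of eIF3 were not listed at one level, since they ran from 6.49 ± 1.51 FPKM for Eif3j1 to that of Eif3h. In Control alone Eif4b, at 137 ± 14.1 FPKM, stood above Eif4a1, within the spread of both, and the levels of Eif3b and Eif3c did not differ beyond theirs.

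**Figure D1:**
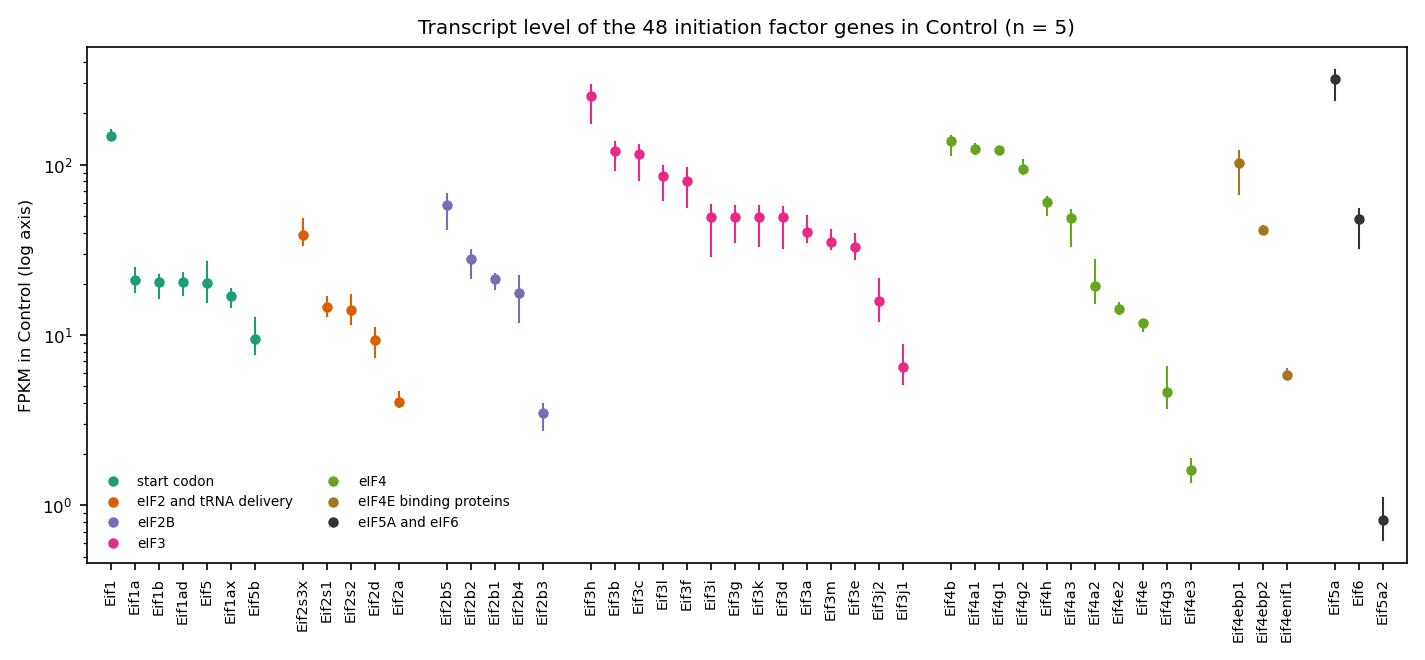
Level of each of the 48 genes in the 5 Control libraries, in FPKM on a log axis, grouped and coloured by role. Points are means and bars run from the lowest to the highest library. Eif5a stands at the top and its paralogue Eif5a2 at the bottom.

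Libraries differed in depth from 6945498 counts (oxLDL + pNaKtide 4) to 15159877 (IS 5). They also differed in how genes of low GC content stood against genes of high GC content. Measured as the median log2 deviation of tested genes in the lowest GC quartile minus that in the highest, this contrast was 0.21 to 0.69 in the oxLDL libraries and -1.06 to -0.15 in oxLDL + pNaKtide. It was 0.32 in Control 1 but -0.55 to -0.04 in the other Control libraries, and -0.45 in IS 4 but 0.32 to 0.58 in the other IS libraries. Control 1 thus lay within the range of the oxLDL libraries and IS 4 within that of Control, and pNaKtide 3 (0.20) lay above the other pNaKtide libraries (-0.47 to -0.35). The members had a GC content of 38.8% to 56.9% in their protein-coding transcripts (median 50.2%, against 50.6% for the 13901 protein-coding genes tested), so this contrast is given beside the results. Its part in them was not tested. Each fit was also run with the trends out. For this, a smooth curve over GC content and transcript length was fitted in each library to the log2 deviations of genes from their means over all libraries. The curve was used as an offset, so it also takes out any difference between groups that runs along GC content or length.

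With oxLDL, 36 of the 48 members changed against Control at a Benjamini-Hochberg (BH) adjusted p below 0.1 in edgeR's quasi-likelihood test, 15 higher and 21 lower (19 and 19 when libraries were scaled by their size only, 5 and 27 with the trends over GC content and length taken out). Among all genes tested 36.0% were called, 18.1% higher and 18.0% lower. The members' fold changes were moderate, from -0.64 for Eif6 to 0.72 for Eif4a2 on the log2 scale, with a median of -0.13 against 0.04 for all genes. The 2 groups did not overlap for 9 members, 6 above and 3 below, against 8.35% of all genes (4.83% above, 3.52% below). When pNaKtide was added to oxLDL, 40 members differed from oxLDL alone, 22 higher and 18 lower (18 and 22 by library size only, 30 and 8 with the trends out), where 48.3% of all genes were called, 22.1% higher and 26.1% lower. Here 28 members did not overlap between groups (17 above, 11 below; 28.4% of all genes, 13.6% above and 14.8% below), and the median was 0.07 against -0.09 for all genes. Scaling by library size only moved the median of all genes to 0.17 and -0.30, and 7239 and 10376 of 20139 genes were called. The shares over all genes include many genes with low counts. Of the 11567 genes with over 14 counts in every library, 6704 were called with oxLDL and 8304 with pNaKtide added. Among the 46 members of that kind these were 34 and 39. Both comparisons use the same oxLDL libraries, so their values stand side by side below without a test between them. Fewer cells and less RNA per cell cannot be told apart in bulk samples.

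**Figure D2:**
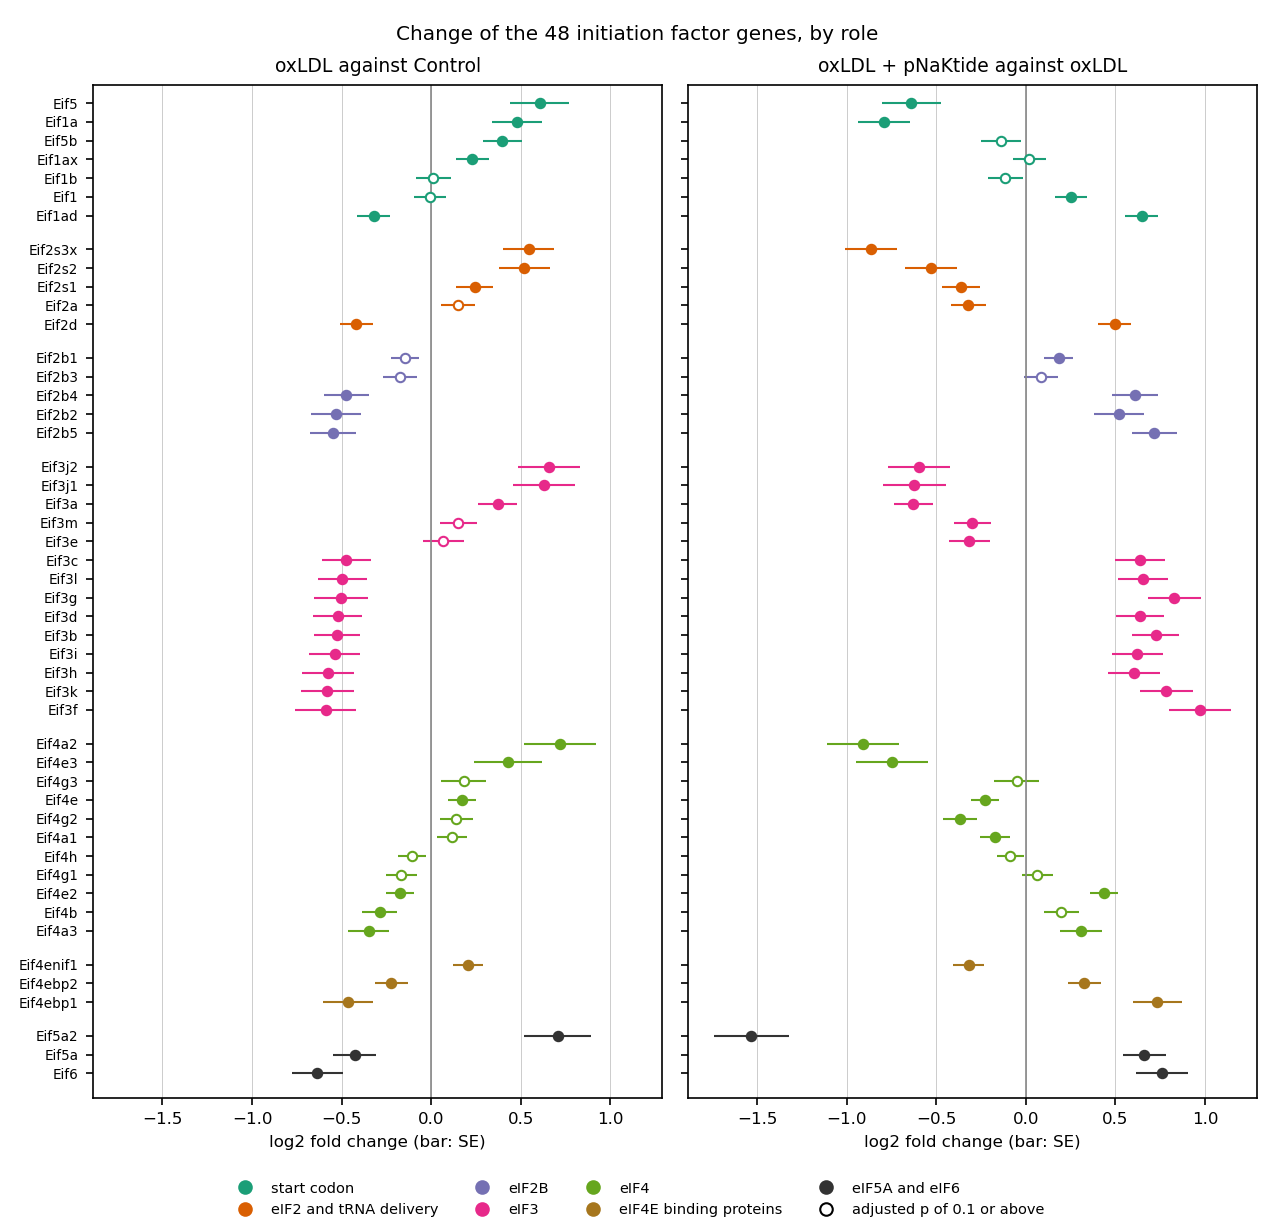
Log2 fold change of the 48 genes with oxLDL against Control (left) and with oxLDL + pNaKtide against oxLDL (right), with bars of 1 SE from edgeR, grouped by role. Filled points passed an adjusted p of 0.1. With oxLDL 9 eIF3 subunits sit left of 0 and 3 filled ones right of it; with pNaKtide added Eif5a2 is the lowest point at -1.53.

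Within eIF3 the subunits fell into 2 sets. With oxLDL 9 of the 14 genes were lower (Eif3b, c, d, f, g, h, i, k and l), with log2 fold changes of -0.59 to -0.47, and 3 were higher (Eif3a, Eif3j1 and Eif3j2). Eif3e and Eif3m did not pass, at 0.07 ± 0.11 (SE) and 0.15 ± 0.10. The 9 lower genes had a GC content of 49.8% to 55.8%, and the other 5 of 40.1% to 44.2%. With the trends over GC content and length taken out of each library, 10 were lower and none higher, Eif3e and Eif3m being among those that were lower and Eif3g no longer passing. With pNaKtide added to oxLDL all 14 passed, the same 9 genes higher and Eif3a, e, j1, j2 and m lower; with the trends out 11 were higher and none lower.

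Eif3b encodes a core subunit with an RNA-binding domain. It stood at 315, 460.0, 386, 456 and 424 CPM in Control, 279, 247, 307, 317 and 267 in oxLDL and 438, 420.3, 395, 576 and 515 in oxLDL + pNaKtide. The lowest library with pNaKtide was above the highest oxLDL library, whereas oxLDL and Control overlapped through Control 1, which was the lowest Control library. The log2 fold change was -0.53 ± 0.13 with oxLDL (BH-adjusted p = 0.00874) and 0.73 ± 0.13 with pNaKtide added (7.4e-05).

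Eif3f encodes one of the subunits with an MPN domain. Its values were 165, 271, 228, 278 and 232 CPM in Control, 157, 122, 174, 195 and 132 in oxLDL and 277, 261, 276, 421 and 297 in oxLDL + pNaKtide. The last of these groups lay wholly above oxLDL, with replicate 4 far above the others. Eif3f had the largest rise among members with pNaKtide added, 0.97 ± 0.17 (BH-adjusted p = 6.92e-05), after -0.59 ± 0.17 with oxLDL (0.0150). With the trends out these were 1.04 and -0.59.

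Eif3a, the largest scaffold subunit, went the other way. It had 263, 188, 214, 184 and 208 CPM in Control, 294, 287, 249, 241 and 296 in oxLDL and 181, 184, 193, 146 and 179.7 in oxLDL + pNaKtide. No library with pNaKtide reached the lowest oxLDL library, and Control 1 lay inside the oxLDL range. The log2 fold changes were 0.37 ± 0.11 (BH-adjusted p = 0.0152) and -0.63 ± 0.11 (5.57e-05), and with the trends out they were -0.02 and -0.03, neither of which passed.

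Of the other eIF3 genes named, Eif3h was -0.57 ± 0.15 with oxLDL and 0.60 ± 0.15 with pNaKtide added, on the log2 scale. Eif3j1 and Eif3j2, which encode the loosely bound subunit, rose by 0.63 ± 0.18 and 0.66 ± 0.17 with oxLDL, but with the trends out they were 0.12 (BH-adjusted p = 0.379) and 0.08 (0.411) and did not pass. Their coding sequences were identical at 99.2% of aligned bases, so the counting could have split reads between them and each value is uncertain. With pNaKtide added Eif3j1 was -0.62 ± 0.18, which turned to 0.10 with the trends out.

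eIF2 and the factors that deliver the initiator tRNA had 3 of 5 genes higher with oxLDL and 1 lower, and 4 lower and 1 higher with pNaKtide added. After the trends were taken out the counts were 2 higher and 3 lower with oxLDL, and 3 higher and 1 lower with pNaKtide added. Eif2s3x encodes the GTP-binding subunit of eIF2. It stood at 184, 131, 157, 129 and 139.8 CPM in Control, 219, 232, 203, 203 and 226 in oxLDL and 128, 131, 144, 84.6 and 105 in oxLDL + pNaKtide. Every oxLDL library was above every library of both other groups. The log2 fold changes were 0.55 ± 0.14 (BH-adjusted p = 0.00994) and -0.87 ± 0.14 (3.72e-05). Both kept their direction after the trends were taken out, at 0.19 and -0.35. Its partner gene Eif2s2 was 0.52 ± 0.14 with oxLDL, also without overlap, and -0.53 ± 0.14 with pNaKtide added. Its values were 0.17 (BH-adjusted p = 0.0980) and -0.07 (0.539) with the trends out, and -0.07 (0.618) and 0.26 (0.00709) with trends from the GC content and length of all transcripts of a gene. Eif2d, which delivers tRNA without GTP, was lower with oxLDL (-0.42 ± 0.09) and higher with pNaKtide added (0.50 ± 0.09), in neither case with overlap.

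eIF2B, the exchange factor that recharges eIF2, had 3 of its 5 subunit genes lower with oxLDL and none higher. With pNaKtide added 4 were higher and none lower; with the trends out all 5 were lower with oxLDL and all 5 higher with pNaKtide added. Eif2b5 encodes the catalytic subunit. Its values were 109, 172, 150.1, 176 and 159 CPM in Control, 100.1, 91.2, 119.7, 118 and 95.1 in oxLDL and 172, 158, 147, 210.4 and 176 in oxLDL + pNaKtide. Among Control libraries only Control 1 fell within the range of oxLDL, and the libraries with pNaKtide lay above it. The log2 fold changes were -0.55 ± 0.13 (BH-adjusted p = 0.00783) and 0.72 ± 0.13 (6.62e-05). The regulatory subunit gene Eif2b2 was -0.53 ± 0.14 with oxLDL, and Eif2b4 was 0.61 ± 0.13 with pNaKtide added. Eif2b3 did not pass in either comparison, at -0.17 ± 0.09 and 0.09 ± 0.10.

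Of the 7 genes for start codon choice and subunit joining, 4 were higher and 1 lower with oxLDL, and 2 were higher and 2 lower with pNaKtide added. With the trends out these were 1 higher and 2 lower, then 3 higher and 2 lower. Eif1a encodes eIF1A, which sits in the decoding site during scanning. It had 71.3, 53.7, 72.5, 52.4 and 58.0 CPM in Control, 82.4, 98.8, 82.9, 70.5 and 94.3 in oxLDL and 51.7, 52.1, 65.8, 34.1 and 43.0 in oxLDL + pNaKtide. The oxLDL libraries lay above those with pNaKtide and overlapped Control. The log2 fold changes were 0.48 ± 0.14 (BH-adjusted p = 0.0155) and -0.79 ± 0.14 (7.6e-05), the first of which did not pass with the trends out (0.02). The coding sequence of its paralogue Eif1ax was identical at 85.6% of aligned bases, and Eif1ax was 0.23 ± 0.09 with oxLDL (higher) but 0.02 ± 0.09 with pNaKtide added, whereas with the trends out it was -0.50 (lower) and 1.01 (higher).

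Eif1ad encodes a protein with an eIF1A-like domain. It stood at 42.7, 53.8, 50.8, 57.5 and 52.6 CPM in Control, 40.4, 39.0, 43.2, 44.2 and 39.3 in oxLDL and 55.5, 62.7, 65.7, 72.5 and 66.2 in oxLDL + pNaKtide. The group with pNaKtide lay above oxLDL, and 4 of its libraries lay above every Control library. Its log2 fold changes of -0.32 ± 0.09 (BH-adjusted p = 0.0130) and 0.65 ± 0.09 (1.04e-05) were -0.31 and 0.70 with the trends out. Eif5, the GTPase activator of eIF2, was 0.61 ± 0.16 and -0.64 ± 0.17, without overlap in either comparison; with the trends out they were 0.14 (BH-adjusted p = 0.165) and 0.03, neither of which passed. Eif5b, the subunit-joining GTPase, was 0.40 ± 0.11 with oxLDL, which turned to -0.08 with the trends out. Eif1 was -0.01 ± 0.09 with oxLDL and 0.25 ± 0.09 with pNaKtide added. The latter did not pass by library size only (0.03), with the trends out (0.11) or without oxLDL + pNaKtide 3 (0.15, BH-adjusted p = 0.138).

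Among the 11 eIF4 genes 3 were higher and 3 lower with oxLDL, and 2 were higher and 5 lower with pNaKtide added. These became 1 higher and 3 lower, then 4 higher and 3 lower, once the trends were out. Eif4a1 and Eif4a2 encode 2 forms of the cap-complex helicase, on chromosomes 11 and 16. The first 150 and 153 coding bases are shown for comparison of the paralogues, whose difference in change was not tested; capitals mark bases that differ or have no partner in the alignment, and the coding sequences were identical at 77.9% of aligned columns.
Eif4a1: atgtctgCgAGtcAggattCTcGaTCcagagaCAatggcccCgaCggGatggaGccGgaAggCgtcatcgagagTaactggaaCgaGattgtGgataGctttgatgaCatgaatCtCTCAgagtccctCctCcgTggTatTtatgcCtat
Eif4a2: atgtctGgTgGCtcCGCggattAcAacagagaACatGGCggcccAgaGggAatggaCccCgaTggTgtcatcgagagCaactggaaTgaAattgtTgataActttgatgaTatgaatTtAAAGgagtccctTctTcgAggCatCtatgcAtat

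The coding GC content was 48.7% for Eif4a1 and 43.4% for Eif4a2. Eif4a2 stood at 149, 89.4, 114, 83.6 and 87.2 CPM in Control, 174, 189, 160.4, 147 and 191 in oxLDL and 90.0, 104, 134, 56.6 and 73.1 in oxLDL + pNaKtide. All oxLDL libraries lay above those with pNaKtide, and Control overlapped oxLDL only through Control 1. The log2 fold changes were 0.72 ± 0.20 (BH-adjusted p = 0.0126) and -0.91 ± 0.20 (0.000638), and with the trends out 0.30 and -0.35. Eif4a1 was 0.12 ± 0.08 with oxLDL and -0.17 ± 0.08 with pNaKtide added. The pseudogene Eif4a-ps4 was listed with 150566 counts, 77.2% of the 195096 of Eif4a1, so the counting may have shared reads of Eif4a1 with it and the value of Eif4a1 is uncertain. Smaller copies were listed for Eif3e (4 pseudogenes, the largest Eif3s6-ps1 with 6.09% of its counts), Eif1 (Eif1-ps1, 5.92%, and Eif1-ps2, 3.94%) and Eif5a (Eif5al3-ps, 3.24%), whose values carry the same limit.

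Eif4e2 encodes a cap-binding protein that competes with eIF4E. Its values were 101, 112, 103, 117 and 104 CPM in Control, 89.1, 94.8, 97.0, 103 and 91.6 in oxLDL and 125, 122, 119, 143 and 136 in oxLDL + pNaKtide. Libraries with pNaKtide were above every library of oxLDL and of Control. The log2 fold change was -0.17 ± 0.08 with oxLDL (BH-adjusted p = 0.0912) and 0.44 ± 0.08 with pNaKtide added (6.59e-05). Eif4a3, a helicase of the exon junction complex, was -0.35 ± 0.12 and 0.31 ± 0.12, but neither passed with the trends out (-0.11 and 0.01), and the second was 0.08 by library size only (BH-adjusted p = 0.503). Eif4b, the helicase cofactor, was -0.29 ± 0.10 with oxLDL, and Eif4e3, a low-level relative of eIF4E, was 0.43 ± 0.19. The call on Eif4e3 was lost with the trends out (0.17, BH-adjusted p = 0.524), with genes of at least 1 count (0.112) and on leaving out any 1 of 7 libraries (Control 2, 4 and 5 and oxLDL 1, 2, 4 and 5). Eif4g2, a scaffold that lacks the eIF4E site and was the only member whose annotated coding sequence begins with GTG, was -0.37 ± 0.09 with pNaKtide added, and 0.31 with the trends out.

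The eIF4E binding proteins hold eIF4E away from the cap complex. Eif4ebp1 was lower with oxLDL (-0.46 ± 0.14) and higher with pNaKtide added (0.73 ± 0.14). With the trends out these values were -0.53 and 0.86. Eif4ebp2 was -0.22 ± 0.09 and 0.33 ± 0.09, and Eif4enif1, which carries eIF4E into the nucleus, was 0.21 ± 0.09 and -0.32 ± 0.09. All 3 genes passed in both comparisons, with and without the trends. By library size only Eif4ebp2 passed in neither, at -0.09 (BH-adjusted p = 0.397) and 0.09 (0.356). With genes of at least 1 count Eif4ebp2 (0.126) and Eif4enif1 (0.133) did not pass with oxLDL, and these calls were also lost on leaving out any 1 of 5 libraries for Eif4ebp2 (Control 2, 4 and 5, oxLDL 1 and 5) and any 1 of 8 for Eif4enif1 (all but Control 1 and oxLDL 3).

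eIF5A is the one protein known to carry hypusine, and mice have 2 genes for it. Eif5a lies on chromosome 11 (GRCm38, 69916714 to 69921958, minus strand) and Eif5a2 on chromosome 3 (28781276 to 28798846, plus strand). The first 150 coding bases are shown because the 2 paralogues stood at opposite ends of the level and changed in opposite directions; capitals mark the 34 bases at which they differ, and the whole coding sequences were identical at 72.7% of aligned bases.
Eif5a: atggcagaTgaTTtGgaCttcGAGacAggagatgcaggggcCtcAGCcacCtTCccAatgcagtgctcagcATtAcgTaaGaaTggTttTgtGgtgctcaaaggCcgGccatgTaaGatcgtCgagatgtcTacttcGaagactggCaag
Eif5a2: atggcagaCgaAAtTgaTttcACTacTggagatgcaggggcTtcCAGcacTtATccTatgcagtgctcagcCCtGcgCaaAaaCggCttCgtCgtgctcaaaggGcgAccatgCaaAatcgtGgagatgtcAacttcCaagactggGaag

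The whole protein-coding transcripts had a GC content of 53.7% for Eif5a and 38.8% for Eif5a2, the lowest of the members, while the coding sequences had 50.4% and 45.3%. Eif5a2 stood at 5.58, 3.48, 5.35, 3.27 and 3.22 CPM in Control, 6.78, 7.49, 5.81, 5.80 and 8.14 in oxLDL and 2.20, 3.69, 2.58, 1.32 and 1.71 in oxLDL + pNaKtide. The oxLDL group lay above both other groups, and Control 1 and Control 3 were the highest Control libraries. The log2 fold change was 0.71 ± 0.19 with oxLDL (BH-adjusted p = 0.0110) and -1.53 ± 0.21 with pNaKtide added (9.58e-06), the largest fall among the members. With the trends out these were -0.05, which did not pass, and -0.52, which did. Eif5a was -0.43 ± 0.12 and 0.66 ± 0.12, and Eif6 -0.64 ± 0.14 and 0.76 ± 0.14. Both kept their direction and their call with the trends out.

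**Figure D3:**
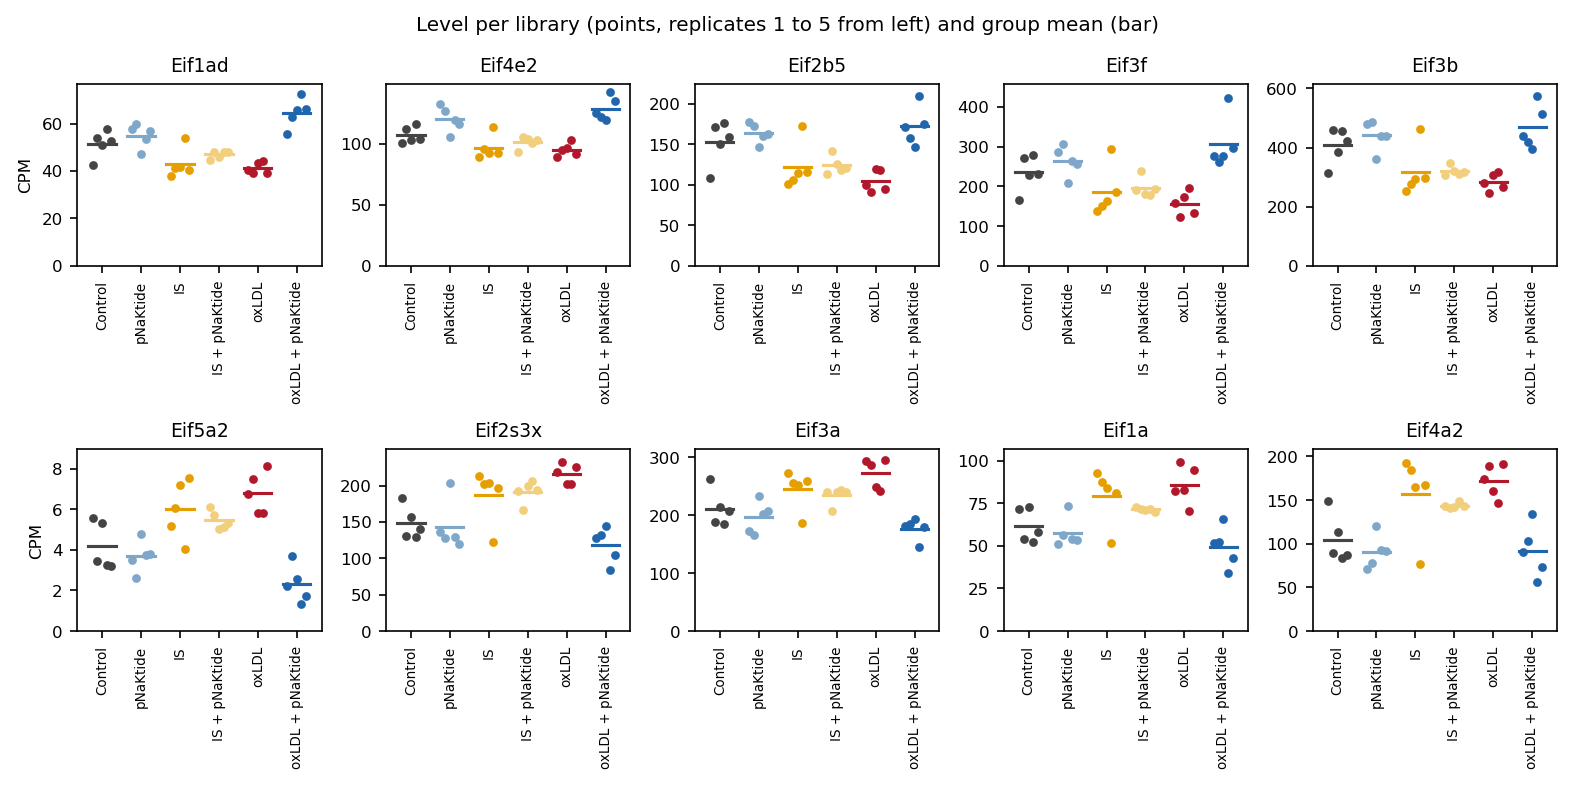
Level in CPM of the 10 members with per-library values for the oxLDL comparisons, in the 6 groups. Points are libraries, replicates 1 to 5 from left to right, and bars are group means. In each panel oxLDL + pNaKtide lies apart from oxLDL, and IS 4 is the highest or the lowest IS library in every panel.

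Across the 48 members the log2 fold change with oxLDL had a Pearson correlation of -0.827 with GC content, against -0.741 across the 10514 protein-coding genes whose log2 CPM averaged 1 or more. With pNaKtide added to oxLDL the values were 0.788 and 0.699. These points share the same libraries and genes are not independent replicates, so the correlations are a description. Of the 24 members at or below the median GC content 14 were higher and 3 lower with oxLDL, and of the 24 above it 1 was higher and 18 lower. With the trends over GC content and length out, 32 members were called with oxLDL, 5 higher and 27 lower, where 18.9% of all genes were called, 8.15% higher and 10.8% lower. Of the 36 called without that step 22 kept their call and 6 changed sign. With pNaKtide added to oxLDL, 38 were called with the trends out, 30 higher and 8 lower (35.5% of all genes, 18.7% higher and 16.8% lower), 26 kept their call and 9 changed sign. What gave rise to the trends was not tested.

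**Figure D4:**
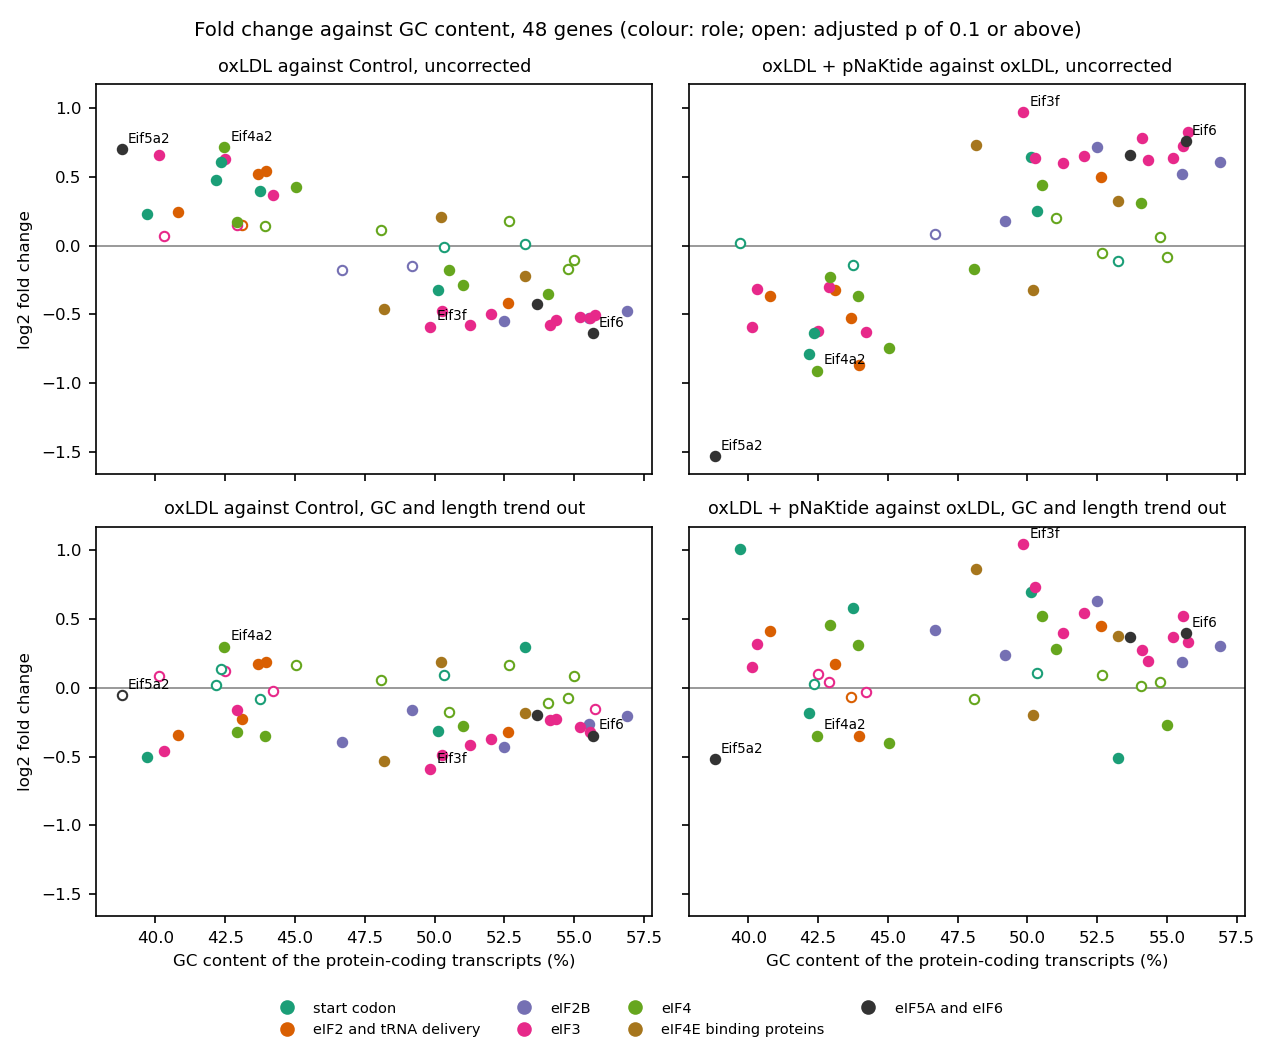
Log2 fold change of the 48 members against the GC content of their protein-coding transcripts, for oxLDL against Control (left) and oxLDL + pNaKtide against oxLDL (right), without (top) and with (bottom) the trends over GC content and length taken out of each library. Colours are roles, and open points had an adjusted p of 0.1 or above. The top panels slope (r of -0.827 and 0.788), and in the bottom panels 27 of 32 called members lie below 0 on the left and 30 of 38 above 0 on the right.

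With IS, 8 members were called against Control, 1 higher and 7 lower, where 7.94% of all genes were called, 4.45% higher and 3.49% lower. By library size only 9 members were higher and 6 lower, and 12.6% of all genes were called, 10.6% higher and 2.07% lower. DESeq2 called 22 members, 8 higher and 14 lower, and 3160 genes. With the replicate number as a block 23 members and 3423 genes were called, and with only IS and Control in the fit 0 and 0. Of the adipocyte markers 3 of 8 were lower and 1 higher in the first of these fits, with a sum of 11255 to 13420 CPM in IS against 13094 to 15974 in Control, and of the preadipocyte or fibroblast markers 2 of 6 were lower; their part was not tested. The 8 members called in that fit were Eif4a2, which was higher (0.59 ± 0.20), and Eif1ad, Eif3d, Eif3h, Eif4ebp1, Eif4g1, Eif5a and Eif6, which were lower. The smallest adjusted p-values belonged to Eif4ebp1 at -0.44 ± 0.14 (BH-adjusted p = 0.0817), Eif6 at -0.44 ± 0.14 (0.0844) and Eif3d at -0.41 ± 0.14 (0.0897). The values of Eif3d were 163, 279, 253, 283 and 256 CPM in Control and 152, 166, 176, 262 and 177 in IS. Without Control 1 and IS 4 the groups would not overlap: Control 1 lay among the IS libraries and IS 4 among the Control ones. Leaving out Control 1 alone gave 33 members and 6694 of all genes called, and IS 4 alone 35 and 6952, but leaving out any other 1 of these 10 libraries gave 0 members and 15 to 305 genes. With 3 pairs of close libraries of other groups each summed as 1 library, no member was called. Both libraries were kept under their labels, and whether the labels of these 2 were exchanged was not tested. Control 1 and IS 4 were singled out by their values in these data. Leaving them out thus narrows the spread of both groups, and the larger counts that follow are no independent result. With both libraries left out 39 members were called, 15 higher and 24 lower, and 45.4% of all genes, 23.8% higher and 21.6% lower. Eif3d was then -0.68 ± 0.10 and Eif4a2 0.92 ± 0.17, and 9 eIF3 genes were lower and 3 higher. With the trends over GC content and length also out, 35 members were called, 5 higher and 30 lower, and 6445 genes. With the trends out and all libraries kept, 10 members were called, 1 higher and 9 lower, and 1134 genes. Eif5a2 ranged from 2.61 to 4.80 CPM in pNaKtide, 4.04 to 7.56 in IS and 5.04 to 6.13 in IS + pNaKtide. Eif4a2 ranged from 71.1 to 119.9, 76.6 to 192 and 141 to 149 CPM in the same groups, and Eif3f from 209 to 308, 138 to 294 and 179 to 239 CPM. In each of these genes IS 4 was the IS library nearest to the pNaKtide group.

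With IS + pNaKtide against IS no member was called, nor any gene, in edgeR. No member had an unadjusted p under 0.05 and the log2 fold changes lay between -0.15 and 0.15; DESeq2 called 0 members and 14 genes. Against Control, IS + pNaKtide had no member called in edgeR (0.358% of all genes), although 26 had an unadjusted p under 0.05 (4022 of 20139 genes), and DESeq2 called 13 (7.38% of all genes). Of the 6 preadipocyte or fibroblast markers 2 were lower by edgeR and 3 lay wholly below Control, as did 1.64% of all genes, and their part was not tested. Without Control 1 alone edgeR called 26 members and 5378 genes, and without Control 1 and IS 4 it called 32, 10 higher and 22 lower, and 32.4% of all genes, 17.0% higher and 15.3% lower.

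With pNaKtide alone no member was called against Control, where 0.00497% of all genes (1 gene) was called. The log2 fold changes lay between -0.21 and 0.25, and 2 members, Eif4e2 and Eif5b, had an unadjusted p under 0.05; DESeq2 called 0 members and 57 genes. Against Control, oxLDL + pNaKtide had 3 members called, where 5.20% of all genes were called, 2.04% higher and 3.16% lower. Eif5a2 was lower (-0.83 ± 0.22, BH-adjusted p = 0.0361), and Eif1ad (0.33 ± 0.09, 0.0426) and Eif4e2 (0.26 ± 0.08, 0.0570) were higher. With only these 2 groups in the fit no member and 11 genes were called. DESeq2 called 8 members and 1821 genes, and with the trends out there were 9 members and 1945 genes, these 3 members among them in both. Without Control 1, 2 members and 727 genes were called, and none of these 3 was among the members. Without Control 3 the count was 1 (606 genes), and without oxLDL + pNaKtide 4 it was 1 (505 genes).

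The change with pNaKtide was then compared between backgrounds. It differed between oxLDL-treated and untreated cells for 32 members, 19 higher and 13 lower (14 and 19 by library size only), where 24.6% of all genes were called, 12.8% higher and 11.8% lower. The smallest adjusted p-values belonged to Eif5a2, with a difference of log2 fold changes of -1.36 ± 0.30 (BH-adjusted p = 0.0186), Eif1ad at 0.55 ± 0.13 (0.0204) and Eif2s3x at -0.82 ± 0.20 (0.0225). This count was 15 without oxLDL + pNaKtide 4, 16 without pNaKtide 3, 17 without Control 4 and 21 without any 1 of Control 2, oxLDL 5 and oxLDL + pNaKtide 5. The number of all genes called fell with it, from 4951 to 2525, 2109, 2837 and 3150 to 3854. With the trends out the count was 20, 18 higher and 2 lower. Between oxLDL-treated and IS-treated cells the change differed for 29 members, 18 higher and 11 lower (16 and 19 by library size only, 23 and 3 with the trends out), where 29.3% of all genes were called, 13.9% higher and 15.4% lower. The same 3 genes led, at -1.39 ± 0.28, 0.51 ± 0.13 and -0.90 ± 0.20. Eif5a2 did not pass in either test once the trends were out, at -0.50 (BH-adjusted p = 0.173) for untreated and -0.49 (0.114) for IS-treated cells, nor with trends from all transcripts or without Control 1 and IS 4 as well. Eif1ad and Eif2s3x kept their direction and call in these settings. Over all genes the interaction called 6.35% higher and 19.8% lower by library size only, and 6.63% and 4.19% with the trends out; for the difference from IS the shares were 8.01% and 24.1%, then 9.78% and 6.79%.

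**Figure D5:**
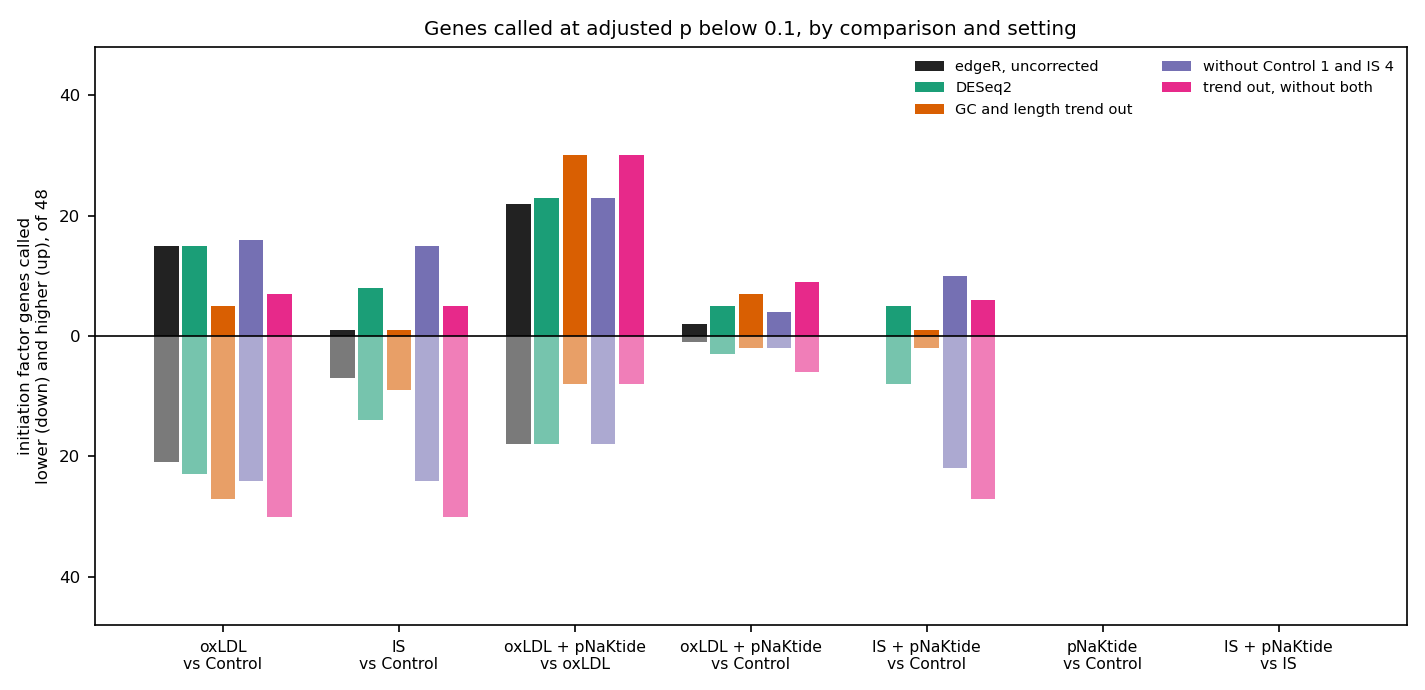
Number of the 48 members called higher (above 0) and lower (below 0, paler) at an adjusted p of 0.1 in each comparison, for edgeR, DESeq2, edgeR with the GC and length trends out, and the 2 edgeR fits without Control 1 and IS 4. The IS count goes from 8 to 39 without those libraries, and no member was called for pNaKtide alone or IS + pNaKtide against IS in any of the 5 settings.

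Genes that act on these factors were listed by pathway and counted in the same fit. Of the 9 genes for the kinases and phosphatase of eIF2, 3 were higher and 1 lower with oxLDL, and 2 were higher and 6 lower with pNaKtide added. Eif2ak2, the double-stranded RNA kinase, was 0.63 ± 0.14 and -0.67 ± 0.14, and Eif2ak3, the kinase of the endoplasmic reticulum, 0.33 ± 0.11 and -0.68 ± 0.11. Of 13 genes of mTORC1 and cap-binding control 3 were higher and 5 lower with oxLDL, then 5 higher and 4 lower with pNaKtide added. Rheb, the GTPase that activates mTORC1, was 0.47 ± 0.12 and -0.40 ± 0.12, and Akt1s1, an inhibitor of it, -0.49 ± 0.14 and 0.71 ± 0.14. Of 13 initiation cofactors 7 were higher and 2 lower, then 3 higher and 6 lower, with the helicase gene Ddx3x at 0.64 ± 0.17 and -1.01 ± 0.17. Of 12 elongation and termination factors 2 were higher and 7 lower, then 7 higher and 2 lower, and Eef2, the translocase, was -0.60 ± 0.16 and 0.80 ± 0.16. After the trends were taken out the 4 lists, in this order, had 3 higher and 2 lower, 3 and 2, 0 and 1, and 0 and 6 with oxLDL, then 1 and 4, 6 and 3, 7 and 1, and 7 and 0 with pNaKtide added, so that the cofactors kept none of their 9 calls with oxLDL and turned from mostly lower to mostly higher with pNaKtide added. Of the 6 genes named here all kept their signs, but Akt1s1 (-0.16) and Ddx3x (0.04) did not pass with oxLDL, nor Eif2ak2 (-0.11) with pNaKtide added. By library size only the counts were 6 and 1, 4 and 2, 7 and 1, and 2 and 6, then 1 and 7, 2 and 6, 1 and 8, and 7 and 5, and these 6 genes passed in both comparisons with the same signs. These lists were chosen with earlier results known, and 63.8% and 74.5% of their 47 genes were called in the 2 comparisons, against 36.0% and 48.3% of all genes. The shares over all genes include many genes with low counts. Of the 11567 genes with over 14 counts in every library, 6704 and 8304 were called.

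Promoter windows of RefSeq (GRCm38.p6, 250 bases before to 50 after a start) were at hand for 38 of the 48 members. On either strand CCGGAAG, an Ets motif, stood in 15 of 38 (39.5%, against 9.93% of 27025 genes) and the E-box CACGTG in 10 (26.3%, against 8.09%). CCAAT, the NF-Y motif, stood in 13 (34.2%, against 41.1%), the palindromic Nrf1 motif in 1 (2.63%, against 1.07%) and the cyclic AMP response element TGACGTCA in 0 (against 2.03%). Of 12 windowed members that were higher with oxLDL 3 held the Ets motif, 3 the E-box and 4 CCAAT, and of 17 that were lower 10, 3 and 7, with a median GC content of the window of 64.0% and 56.7%. The median GC content of the windows was 62.2% for members and 52.7% for all genes, and its part in the motif counts was not tested. The 250 bases before the start are shown for Eif5a2 and Eif3f, the members with the largest fall and rise when pNaKtide was added, with motif letters in capitals (chr3:28781027-28781276 and chr7:108934165-108934414, both plus strand). Eif5a2 has 2 E-boxes, 2 Ets motifs and 1 CCAAT, and Eif3f has 1 E-box and 2 CCAAT.
Eif5a2: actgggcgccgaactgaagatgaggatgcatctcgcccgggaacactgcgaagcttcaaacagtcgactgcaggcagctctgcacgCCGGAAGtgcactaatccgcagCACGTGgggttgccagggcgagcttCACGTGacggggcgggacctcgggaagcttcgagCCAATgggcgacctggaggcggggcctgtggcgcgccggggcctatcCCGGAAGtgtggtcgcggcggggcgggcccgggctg
Eif3f: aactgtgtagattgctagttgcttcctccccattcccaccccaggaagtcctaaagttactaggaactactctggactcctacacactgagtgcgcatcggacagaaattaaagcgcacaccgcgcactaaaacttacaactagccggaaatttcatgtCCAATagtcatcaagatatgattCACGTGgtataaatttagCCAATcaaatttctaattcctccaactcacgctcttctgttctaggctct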

How the data were processed

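The series holds 30 RNA-seq libraries of 3T3-L1 cells (stranded mRNA libraries, paired reads). Per the labels and the methods, the authors trimmed reads with Trimmomatic 0.38, aligned them to GRCm38 with HISAT2 2.1.0, counted them with GenomicAlignments and tested with DESeq2 1.20.0; neither the annotation release nor the strand setting was stated in them. The deposited raw counts were tested, the deposited FPKM values gave levels, and the deposited normalized counts were not used. IDs were matched to symbols of GENCODE (54079 of 54232), and 0 columns of other samples were found.

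Genes with over 14 counts (20139) entered 1 fit of the 6 groups with edgeR 4.0.16 (TMM, robust quasi-likelihood test) in R 4.3.3, and p-values were BH-adjusted over all of them at a threshold of 0.1. SE is the log2 fold change divided by the root of F. CPM is per effective library size. GC and length trends were fitted per library with mgcv 1.9.3 and used as offsets. Library depth was 6945498 to 15159877 counts, which limits low genes such as Eif5a2 and Eif4e3; intervals cover the spread between libraries only. The fit was tested on simulated counts with equal spread for all genes and no GC trend. That check does not cover the GC contrast or the libraries that stood apart here. Within groups, chi-square per degree of freedom was lowest for IS + pNaKtide 3 and 4 (1.30), pNaKtide 1 and 2 (1.36) and pNaKtide 4 and 5 (1.40); other pairs gave 3.72 to 11.2 in IS + pNaKtide and 14.5 to 18.6 in pNaKtide. Each library was counted, and an alternative summed these 3 pairs, which lay below a limit of 1.5. The next lowest were Control 2 and 4 (1.82), IS 1 and 2 (2.01) and oxLDL 2 and 5 (2.30), which were not summed. Whether any of these pairs shares a culture was not stated.

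Named, per role, were up to 2 members in each direction with the smallest adjusted p in both oxLDL comparisons, the highest by FPKM, and up to 3 called in the others. Per-library values were given for 5 members in each direction, and for Eif3d with IS. Paralogues and examples from the pathway lists were added after values were seen. The members and lists were chosen with earlier results of these data known. Alternatives were DESeq2 1.42.0, other scalings and filters, limma 3.58.1 on log2(FPKM + 1), a replicate block, smaller fits, libraries left out and trends removed. Coding sequences and promoters came from GENCODE and RefSeq tables and were aligned with Biopython 1.88.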

Additional observations from a re-analysis of the deposited data

Results flagged for a closer look

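In each group of 5 libraries, the highest or lowest library was called apart where its gap to the next exceeded 0.71 of the range of the group (Dixon's 95% limit). Of 192 groups of values tested, over 31 named members and the members' share of counts, 39 had such a library, where chance alone gives about 1 in 20; 21 of them were in IS 4.

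IS 4 was above the other IS libraries, in CPM, for Eif1ad (53.8), Eif2b2 (58.9), Eif2b4 (50.9), Eif2b5 (173), Eif2d (73.8), Eif3b (463), Eif3d (262), Eif3h (453), Eif4a3 (106), Eif4e2 (114), Eif4ebp1 (236), Eif4ebp2 (264), Eif5a (787) and Eif6 (135). It was below them for Eif2s3x (123), Eif3a (187), Eif4a2 (76.6), Eif4enif1 (33.2), Eif4g2 (872) and Eif5b (93.1), and its share of counts in members was 0.933%. For Eif3b the other IS libraries ran from 255 to 297 CPM, and for Eif4a2 from 165 to 192.

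pNaKtide 3 was above its group for Eif1a (73.3 CPM), Eif2s3x (203), Eif3j2 (54.5), Eif4g2 (1035) and Eif5 (199). IS + pNaKtide 2 was above its group for Eif3f (239), Eif3h (360) and Eif5a (686) and below it for Eif3a (207), and IS + pNaKtide 4 was above it for Eif4a2 (149). oxLDL + pNaKtide 4, the shallowest library, was above its group for Eif2b2 (68.4), Eif3f (421) and Eif6 (191) and below it for Eif3a (146). oxLDL + pNaKtide 3 was below it for Eif4b (488), oxLDL + pNaKtide 5 for Eif4enif1 (31.8), and Control 1 was below its group for Eif3d (163) and Eif4a3 (71.7). What sets these libraries apart was not tested, an exchange of the labels of Control 1 and IS 4 included; labels were kept as given.

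The change with pNaKtide differed between oxLDL-treated and untreated cells for 32 members by the interaction term, among them Eif5a2 (-1.36), Eif1ad (0.55) and Eif2s3x (-0.82, log2). Between oxLDL-treated and IS-treated cells it differed for 29, among them Eif5a2 (-1.39), Eif1ad (0.51) and Eif2s3x (-0.90). With the GC and length trends out Eif5a2 did not pass in either test, at -0.50 (edgeR, BH-adjusted p = 0.173) and -0.49 (0.114).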

How the results depend on the processing

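For oxLDL against Control, oxLDL + pNaKtide against oxLDL, and the oxLDL against IS difference, the number of members called stayed within 1.5 times under every alternative. It was 0 throughout for pNaKtide against Control and IS + pNaKtide against IS. The number of all genes called, in brackets, moved in the same direction in each case that follows. An exception outside that list was IS against Control with the trends out, 10 (1134). For IS against Control, 8 (1599), it was 0 (669) with the closest pairs summed, 22 (3160) with DESeq2, 15 (2541) by library size only, 0 (546 of 29409) with genes of at least 1 count, 18 (2424 of 11567) with over 14 counts in every library, 1 (684) with limma on FPKM, 0 (0) with only the groups compared in the fit, 39 (9140) without Control 1 and IS 4, and 35 (6445) with the trends also out. For oxLDL + pNaKtide against Control, 3 (1047), it was 8 (1821) with DESeq2, 6 (1968) by library size only, 5 (1660) with over 14 counts in every library, 0 (11) with only the groups compared, 6 (1287) without Control 1 and IS 4, 9 (1945) with the trends out, 15 (2558) with both, and 11 (2034) with trends from all transcripts. For IS + pNaKtide against Control, 0 (72), it was 13 (1486) with DESeq2, 9 (1152) with only the groups compared, 32 (6517) without Control 1 and IS 4, 3 (638) with the trends out, 33 (4333) with both, and 3 (612) with trends from all transcripts. The interaction count, 32 (4951), was 20 (2180) with the trends out, 21 (2321) with trends from all transcripts and 36 (8049) without Control 1 and IS 4. Leaving out 1 library gave 29 to 40 for oxLDL, 0 (without Control 2) to 35 (without IS 4) for IS, 1 to 4 for oxLDL + pNaKtide and 0 to 26 (without Control 1) for IS + pNaKtide against Control, 37 to 40 for oxLDL + pNaKtide against oxLDL, 15 (without oxLDL + pNaKtide 4) to 35 for the interaction, and 23 to 36 for the difference from IS. With the trends out, 6 called members changed sign with oxLDL and 9 with pNaKtide added. Of those named by the rule in the comparison concerned these were Eif5b (-0.083) and Eif5a2 (-0.052) with oxLDL, and Eif5 (0.026), Eif3j1 (0.10) and Eif4g2 (0.31) with pNaKtide added. Without Control 1 and IS 4 as well, these were -0.11, -0.10, 0.027, 0.11 and 0.31. With trends from all transcripts, Eif5b (-0.090), Eif2s2 (-0.065) and Eif5a2 (-0.049) changed sign with oxLDL, and Eif2s2 (0.26) and Eif4g2 (0.33) with pNaKtide added. Members named only in the other comparison could turn as well, as Eif3a did with oxLDL once the trends were out. The cause was not tested. The last 2 trend settings and the sum of pairs were chosen after seeing the data. Control 1 and IS 4 were likewise picked for leaving out by their values, since the labels do not set them apart.

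Replicate numbers were shared by the groups. Same-numbered libraries of different groups had a median correlation of deviations of 0.10 (-0.66 to 0.79), against -0.03 for other numbers. Of 30 libraries 10 correlated best with their own number. Whether the numbers pair the libraries was not tested. With the replicate block the counts were 23 (3423) for IS, 5 (1653) for oxLDL + pNaKtide and 8 (1338) for IS + pNaKtide, each against Control.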
